A study of Mus musculus with 16 samples.

Results

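The BCL2 family genes of apoptosis were followed in mouse granulosa cells (mGCs), the somatic cells that surround and nourish the oocyte in the ovarian follicle. The 10 genes were taken by name from the 57010 genes counted, and all 10 were found. They are Bcl2, Bcl2l1 (BCL-XL) and Mcl1 among the prosurvival genes, Bax and Bak1 among the effectors, and Bad, Bid, Bcl2l11 (BIM), Bbc3 (PUMA) and Pmaip1 (NOXA) among the BH3-only genes. All 10 passed the filter on low counts in each of the 3 comparisons below.

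Proteins of this family decide whether the outer membrane of the mitochondrion stays closed. BAX and BAK open pores in it, which releases cytochrome c and leads to the activation of caspases. BCL2, BCL-XL and MCL1 hold BAX and BAK in check, and the BH3-only proteins relay stress by binding the prosurvival proteins or by activating the effectors. Loss of granulosa cells by apoptosis is a hallmark of follicular atresia, the fate of most ovarian follicles. Many of these proteins are controlled after translation, so that the transcript level is only a part of their regulation.

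All mice were female ICR mice, 6 weeks old at surgery. In the first experiment mGCs were isolated after ovulation induction from 5 sham-operated mice without an implant (Con-mGC) and from 5 mice that carried endometrium of estradiol-treated donor mice sutured to the mesentery of the bowel, the endometriosis (EM) model (EM-mGC). The recipients kept their ovaries and had received 17β-estradiol followed by a washout. In the second experiment mGCs of 6 EM mice were kept for 24 h in DMEM/F12 with 5% FBS (PBS, 3 libraries) or in the same medium with 100 nM 14,15-EET, an epoxy lipid made from arachidonic acid (EET, 3 libraries). By another description of the study the EET was added after a first culture of 24 h and for a further 24 h, with an equal volume of PBS as vehicle in the control, so the total time in culture is not certain. The study calls the cultured libraries 3 paired replicates of cells divided into a treated and an untreated part. How the 6 mice were distributed over them and whether the replicate numbers mark the pairs is not stated, so the groups were compared without pairing and p-values of the second experiment measure the spread between these libraries, which may be partly technical. Sham-operated mice were not part of the culture experiment.

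Polyadenylated RNA was sequenced, and between 14229123 and 15999234 reads per fresh library and between 21384686 and 29482826 reads per cultured library were counted on genes. Levels are given as counts scaled to library size (CPM) after TMM normalization of all 16 libraries together, and levels of different genes are compared per kb of exon. Library EM-mGC-3 stood apart from the others. Mitochondrial genes took 21.8% of its reads, against 6.76% to 11.1% in the other fresh libraries, and 5 red blood cell markers (most abundant Hba-a1) summed to 16069 CPM in it against 2442 to 5700 CPM in those others. Where leaving it out moved a log2 fold change of one of the 10 genes by over 1.5 times, changed its sign or changed a call, the value without it is given too. Con-mGC-1 differed in another way, with reads on 22071 genes against 25080 to 27642 in the other fresh libraries. In the cultured libraries mitochondrial genes took 1.18% to 1.64% of the reads.

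Granulosa markers were checked first. The 9 markers summed to between 8917 and 12165 CPM in Con-mGC, between 4789 and 16327 CPM in EM-mGC, between 5367 and 5967 CPM in PBS and between 4867 and 5339 CPM in EET, with Inha as the most abundant. All 9 had reads in every fresh library. In the cultured cells Cyp19a1, the aromatase that makes estradiol, was near 0, with no read in PBS-1 and EET-2. From EM-mGC to PBS 8 of the 9 markers fell (edgeR's quasi-likelihood test, adjusted p under 0.05), where 37.9% of all 17301 genes were called lower. In bulk RNA, fewer cells of a type and less RNA per cell cannot be told apart.

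Mcl1 was the most abundant of the 10 genes per kb in all 4 groups, and Bcl2, the founding member of the family, was among the lowest. In Con-mGC, Mcl1 stood at 36.9 ± 5.67 CPM per kb (SD, n = 5), followed by Bax at 19.9 ± 1.77, Bcl2l1 at 14.1 ± 1.82 and Bak1 at 14.0 ± 3.75 CPM per kb. The BH3-only genes lay below these, from Bad at 4.46 ± 0.78 over Bid at 3.71 ± 0.46, Bcl2l11 at 2.65 ± 0.35 and Bbc3 at 1.49 ± 0.47 to Pmaip1 at 0.75 ± 0.51 CPM per kb, with Bcl2 last at 0.72 ± 0.17 CPM per kb. The library ranges overlapped between the neighbours Bcl2l1 and Bak1, Bad and Bid, Bcl2l11 and Bbc3, Bbc3 and Pmaip1, and Pmaip1 and Bcl2, so these are not ordered. EM-mGC had a similar sequence, with Mcl1 at 49.5 ± 10.3 and Bcl2 at 0.67 ± 0.04 CPM per kb. Without scaling by length Bcl2 was not last in Con-mGC, at 6.55 CPM against 3.16 CPM for Bbc3 and 2.05 CPM for Pmaip1.

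In the cultured cells the sequence differed in its middle. Bbc3 was the fifth of the genes at 20.6 ± 3.07 CPM per kb in PBS (SD, n = 3) and 19.2 ± 0.52 in EET, above Bid and Bad. Bcl2l11 was at 1.67 ± 0.26 CPM per kb in PBS, and Pmaip1 was last at 0.22 ± 0.15. Mcl1 at 99.7 ± 6.96 and Bax at 91.1 ± 9.06 CPM per kb overlapped in PBS but not in EET, where they were at 105 ± 3.75 and 89.3 ± 0.33 CPM per kb. The plot of CPM by library shows these levels for each gene.

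**Figure D1:**
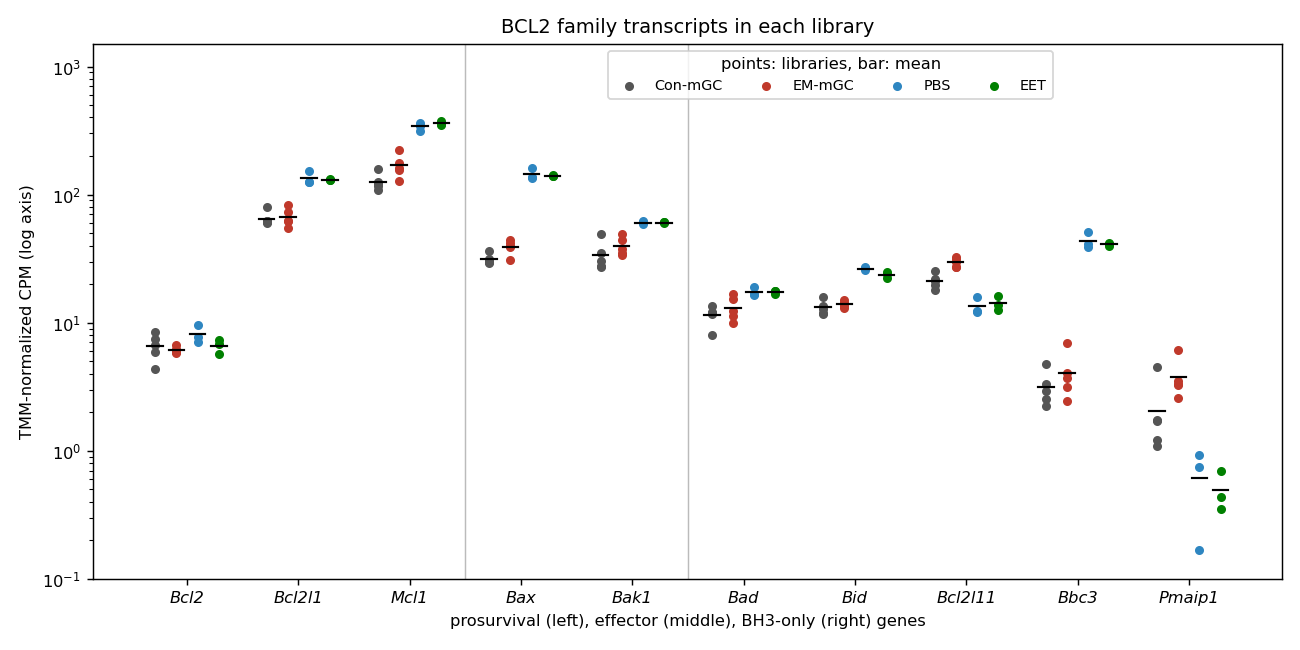
Level of each of the 10 genes (TMM-normalized CPM, log axis) in every library, in the order prosurvival, effector and BH3-only genes; points are libraries, the bar is the group mean. Bbc3 and Bax sit higher and Bcl2l11 and Pmaip1 lower in the cultured groups (PBS, EET) than in the fresh EM-mGC, whereas PBS and EET lie close together.

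The first comparison asked whether the family differed between mGCs of EM and sham-operated mice. None of the 10 genes passed an adjusted p of 0.05 (0 of 10), and neither did any of the 17229 genes tested (0%), the smallest adjusted p being 0.207 (edgeR). At an unadjusted p under 0.05 were 4 of the 10 genes, against 9.44% of all genes, namely Bcl2l11, Bax, Mcl1 and Pmaip1. The fold change was above 0 on the log2 scale for 9 genes and below 0 for Bcl2 only, with a median of 0.28 beside -0.01 over all genes.

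Gene positions are given as deposited, on GRCm39 by the submitters' processing notes. Among the prosurvival genes, Mcl1 (chr3:95566099-95570487), which encodes a short-lived protein that binds BAK and BIM, was measured at 121, 125, 159, 116 and 109 CPM in Con-mGC and at 156, 128, 177, 223 and 162 CPM in EM-mGC. The groups overlapped, because Con-mGC-3 was above EM-mGC-1 and EM-mGC-2 was low. The log2 fold change was 0.42 (SE 0.15, edgeR adjusted p = 0.469). Bcl2l1 (chr2:152622588-152673648), which holds BAX and BAK, differed by 0.05 on the log2 scale (SE 0.12, adjusted p = 0.917), by -0.04 without EM-mGC-3 and by 0.14 without Con-mGC-1. Bcl2 (chr1:106465908-106642004) was at 6.55 ± 1.55 CPM in Con-mGC and 6.15 ± 0.35 CPM in EM-mGC (SD, n = 5), a log2 fold change of -0.10 (SE 0.19, edgeR adjusted p = 0.881) that was -0.21 without Con-mGC-1, -0.06 without Con-mGC-3 and 0.01 without Con-mGC-4.

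Of the effectors, Bax (chr7:45111121-45116322) was at 30.0, 31.4, 36.1, 29.9 and 29.1 CPM in Con-mGC and at 39.4, 38.8, 30.6, 44.2 and 42.1 CPM in EM-mGC. Every EM-mGC library except EM-mGC-3 was above all of Con-mGC. The log2 fold change was 0.31 (SE 0.11, edgeR adjusted p = 0.465), and 0.39 without EM-mGC-3. Bak1 (chr17:27238784-27247983) was at 33.7 ± 9.04 CPM in Con-mGC and 40.0 ± 6.44 CPM in EM-mGC (SD, n = 5), a log2 fold change of 0.24 (SE 0.17, edgeR adjusted p = 0.664). Con-mGC-1 and EM-mGC-3, at 48.9 CPM each, were the highest of their groups for Bak1, and the value was 0.41 without the former and 0.16 without the latter.

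Among the BH3-only genes, Bcl2l11 (chr2:127967958-128004467), which encodes BIM, was at 18.1, 21.0, 25.4, 19.6 and 22.1 CPM in Con-mGC and at 29.8, 27.3, 27.2, 31.4 and 32.7 CPM in EM-mGC. It was the only member whose groups did not overlap, as for 1.69% of all genes (0.917% higher, 0.778% lower), and Con-mGC-3 lay nearest to EM-mGC. The log2 fold change was 0.48 (SE 0.11, 95% interval 0.22 to 0.74), with an unadjusted p of 0.00112 and an adjusted p of 0.348 over all genes in edgeR. DESeq2 called it at an adjusted p of 0.0208 and limma voom with quality weights at 0.0270. With edgeR, the adjusted p stayed between 0.0972 and 0.803 when each library was left out in turn.

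Pmaip1 (chr18:66591604-66598636), the NOXA gene, whose product binds MCL1, was low, at 1.22, 1.74, 4.51, 1.08 and 1.70 CPM in Con-mGC and 3.49, 3.33, 6.13, 2.57 and 3.24 CPM in EM-mGC. Con-mGC-3 was the one control library within the EM range. The log2 fold change was 0.86 (SE 0.40, edgeR adjusted p = 0.529), 1.37 without Con-mGC-3 and 0.61 without EM-mGC-3. Bbc3 (chr7:16042318-16052130), the PUMA gene, was at 3.16 ± 1.00 CPM in Con-mGC and 4.06 ± 1.73 CPM in EM-mGC (SD, n = 5), and its log2 fold change of 0.36 (SE 0.31, edgeR adjusted p = 0.726) was 0.07 without EM-mGC-4 and 0.55 without Con-mGC-3.

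Bad and Bid differed little beside their spread. Bad (chr19:6919229-6929267), whose protein is held inactive by Akt phosphorylation, had a log2 fold change of 0.19 (SE 0.18, edgeR adjusted p = 0.745), which was 0.09 without EM-mGC-3 and also 0.09 without Con-mGC-5. Bid (chr6:120868891-120893814), the link from death receptors to mitochondria, had one of 0.08 (SE 0.12, edgeR adjusted p = 0.854), which was 0.16 without Con-mGC-1 and 0.04 without Con-mGC-4 or Con-mGC-5. Whether reads were counted by strand is not given in the sources used here, and both genes overlap an expressed gene on the opposite strand, Bid with Bcl2l13 (up to 4443 reads in a library) and Bad with Gpr137 (up to 862 reads). Bak1 overlaps Ggnbp1 (up to 104 reads), so values of Bad, Bid and Bak1 are uncertain to that extent.

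**Figure D2:**
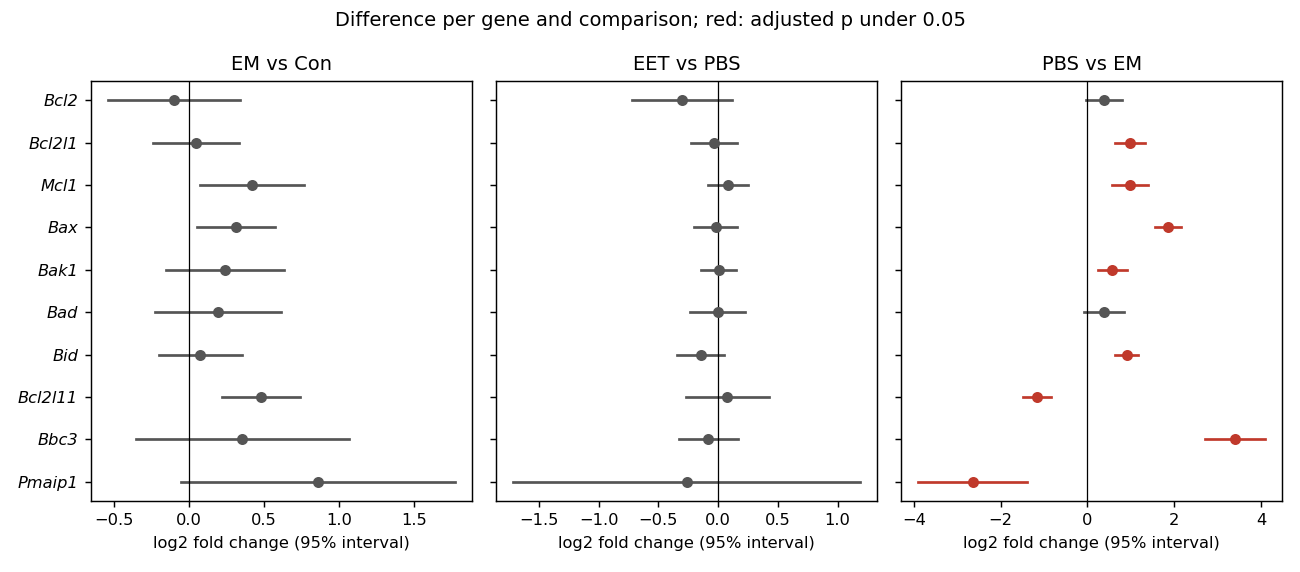
Log2 fold change of each of the 10 genes with its 95% interval (from the standard error and the residual degrees of freedom) in the 3 comparisons; each panel has its own axis, and red marks an adjusted p under 0.05 in edgeR. No gene is red for EM vs Con or EET vs PBS, and 8 of 10 are red for PBS vs EM, from -2.64 for Pmaip1 to 3.40 for Bbc3.

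Markers of several other cell types differed over the same contrast. The 7 markers of neutrophils, short-lived white blood cells, summed to 10.1, 9.95, 56.7, 11.9 and 7.35 CPM in Con-mGC and to 81.3, 41.8, 70.6, 172 and 173 CPM in EM-mGC, with S100a9 as the most abundant and Ly6g without a read in 3 control libraries and in EM-mGC-2. All 6 markers tested were higher in EM-mGC at an unadjusted p under 0.05 (0 of 6 at an adjusted p of 0.05 in edgeR, median log2 fold change 2.68). Of these, Mmp9 (1.86) and Cxcr2 (2.44) did not overlap between the groups, as for 0.917% of all genes in the higher direction. Con-mGC-3, the control library with the highest sum, was also the highest of the controls for Bcl2l11, Pmaip1, Bax, Mcl1 and Bbc3. Within EM-mGC the order depended on the gene. EM-mGC-4 and EM-mGC-5, with the highest sums, were the highest for Bcl2l11 and Bax but the lowest for Pmaip1, which was highest in EM-mGC-3. The 7 macrophage markers (most abundant Lyz2) summed to 203 to 379 CPM in Con-mGC, highest in Con-mGC-3, and to 251 to 671 CPM in EM-mGC. Lyz2 had a log2 fold change of 1.14, while the rest of this list ranged from 0.03 (Adgre1) to 0.38 (Cd68). Of the 7, 0 passed an adjusted p of 0.05 in edgeR. Mean sums of lymphocyte (7.63 against 10.4 CPM), surface epithelial (125 against 153 CPM) and oocyte markers (388 against 460 CPM) were lower in EM-mGC. Their ranges overlapped. The sums of 2 other lists were lower without overlap. The 8 theca and stroma markers (most abundant Col3a1) summed to 1622 to 1765 CPM in Con-mGC and to 868 to 1503 CPM in EM-mGC, and the 5 endothelial markers (most abundant Kdr) to 129.9 to 151 CPM and 72.4 to 127 CPM, so neither sum overlapped between the groups. All of these markers had reads in every fresh library. The collagen genes Col1a1 (log2 fold change -0.96) and Col3a1 (-0.58) did not overlap between the groups. Neither did the smooth muscle genes Myh11 (-0.96) and Cnn1 (-0.88) or the endothelial receptor gene Tek (-0.53). In the lower direction this held for 0.778% of all genes. None of these named genes passed an adjusted p of 0.05 in edgeR (0.268 to 0.443). The theca and stroma list was mixed, with 5 genes lower and 3 higher, the latter being the theca genes Cyp17a1 (0.19) and Insl3 (0.66) and the stroma gene Dcn (0.16). So was the smooth muscle list, with Tagln (0.25) and Des (0.0015) above 0 and a sum that overlapped, at 188 to 319 CPM in Con-mGC and 98.4 to 252 CPM in EM-mGC. All 5 endothelial genes were below 0. The part of these cells in the levels of the BCL2 family genes was not tested.

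**Figure D3:**
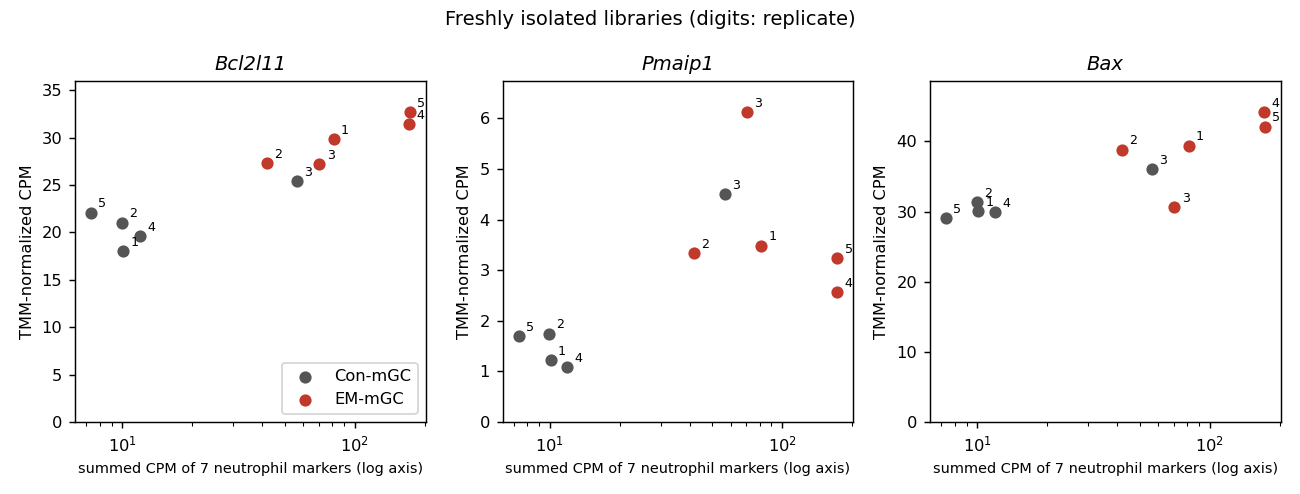
Level of Bcl2l11, Pmaip1 and Bax (TMM-normalized CPM) in the 10 fresh libraries against the summed level of 7 neutrophil markers (CPM, log axis); digits are replicate numbers. Con-mGC-3, with a marker sum of 56.7 CPM, lies beside the EM-mGC libraries in all 3 panels, while EM-mGC-4 and EM-mGC-5, with the highest sums, have the lowest Pmaip1 of the EM-mGC libraries.

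By the rule of likeness, Pmaip1 had the largest SD of log2 CPM over the 10 fresh libraries (0.68), and the genes whose pattern was most like it were Osm (Pearson r = 0.979), the predicted gene Gm47155 (0.973), Cd48 (0.956), Snap29 (0.942) and C9orf72 (0.935). Osm encodes the cytokine oncostatin M and Cd48 a surface protein of blood cells. These are descriptions over 10 libraries of 2 groups, which share their group differences, cell makeup and depth.

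The second comparison asked whether 14,15-EET changed the family in cultured mGCs of EM mice. None of the 10 genes was called (0 of 10), where 184 of 15050 genes were (1.22%, with 0.498% higher and 0.724% lower). None had an unadjusted p under 0.05 either, against 12.4% of all genes, and no alternative fit called a member. The median log2 fold change of the 10 genes was -0.03, beside 0.00 over all genes, and replicates in culture were tight (biological coefficient of variation 0.062, against 0.249 in the fresh libraries).

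The effectors and the BH3-only gene with the highest level were nearly equal in PBS and EET. Bax was at 160.0, 134 and 136 CPM in PBS and 141, 141 and 140.2 CPM in EET, with a 95% interval of the log2 fold change from -0.20 to 0.16. The EET libraries all lay within the PBS range. For Bbc3, at 51.1, 39.0 and 40.9 CPM in PBS and 41.0, 41.9 and 39.7 CPM in EET, the interval ran from -0.33 to 0.16. PBS-1 was the highest of the 6 libraries for both genes. The interval of Bak1 was -0.14 to 0.15 and that of Bad -0.24 to 0.23.

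Bid and Bcl2 had the smallest p-values. Bid was at 26.6, 25.7 and 27.0 CPM in PBS and 24.9, 23.9 and 22.4 CPM in EET, a log2 fold change of -0.15 (SE 0.07, edgeR adjusted p = 0.418). Its groups did not overlap, as for 17.6% of all genes (8.48% higher, 9.17% lower), which in this comparison is not rare. Bcl2 was at 7.69, 9.66 and 7.07 CPM in PBS and 5.67, 6.76 and 7.38 CPM in EET, a log2 fold change of -0.30 (SE 0.15, edgeR adjusted p = 0.442), and EET-3 lay within the PBS range. Without PBS-2, the highest of the 6 libraries, the difference was -0.15, and without EET-1 it was -0.20. The intervals of Mcl1 (-0.08 to 0.25), Bcl2l1 (-0.23 to 0.16) and Bcl2l11 (-0.27 to 0.42) spanned 0. Pmaip1, with 4 to 17 reads per cultured library, had a wide interval from -1.72 to 1.19, so that a change within these limits was not resolved.

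Outside the 10 genes, the BH3-only gene Bmf, whose protein is released from the cytoskeleton on detachment and stress, was the single gene of the apoptosis lists that passed in this comparison. With 1.22% of all genes called, 1 call does not set these lists apart. It was at 13.5, 12.6 and 17.6 CPM in PBS and at 23.5, 22.8 and 20.2 CPM in EET, so the groups did not overlap. Its log2 fold change was 0.61 (SE 0.12, edgeR adjusted p = 0.0245, n = 3 per group). Without any one of the 3 EET libraries the adjusted p was 0.0935, 0.132 or 0.0776, so the call needs all of them. Over all refits, by tool, scaling, filter, block or library left out, the call held in 11 of 14. In the fresh cells Bmf ranged from 11.5 to 22.1 CPM in Con-mGC and from 12.9 to 38.7 CPM in EM-mGC (log2 fold change 0.64, edgeR adjusted p = 0.543). The other lists, of 17 genes of the mitochondrial pathway after pore opening, 9 tested genes of the death receptor pathway and 20 tested regulators, had no called gene (0). Among cell type markers, the granulosa gene Inha was called lower (log2 fold change -0.36, edgeR adjusted p = 0.0430). So was the smooth muscle gene Cnn1 (-0.70, edgeR adjusted p = 0.0166). In their lists, 3 of 7 tested granulosa and 2 of 5 smooth muscle markers were above 0. The macrophage marker Lyz2 (1.08) did not pass (edgeR adjusted p = 0.108). The part of cell makeup in this comparison was not tested.

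The third comparison set the cultured cells without EET (PBS) beside the fresh cells (EM-mGC), both from EM mice. Culture and anything else that differed between the 2 experiments cannot be told apart here. The comparison shares EM-mGC with the first and PBS with the second. Of the 10 genes 8 passed, 6 higher and 2 lower in PBS, where 69% of all 17301 genes passed (31.1% higher, 37.9% lower), so the count alone does not set the family apart. The groups of 9 members did not overlap, as for 66.3% of all genes (31.3% higher, 35% lower), and 9 had an unadjusted p under 0.05, as had 71.8% of all genes. The median log2 fold change of the 10 genes was 0.74, beside -0.11 over all genes. With upper-quartile scaling the median over all genes was -0.36 and the called genes split into 3884 higher and 8040 lower, against 5381 and 6556, with 8 members called under either scaling. Without EM-mGC-3, 9 members were called.

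Bbc3 had the largest rise of the 10 genes, from 3.16, 2.42, 4.06, 6.95 and 3.68 CPM in EM-mGC to 51.1, 39.0 and 40.9 CPM in PBS. The lowest PBS library was above the highest fresh library. The fold was 10.6 (log2 3.40, SE 0.28, edgeR adjusted p = 5.81e-06), higher than the value of 98.7% of all genes tested. Pmaip1 fell from 3.49, 3.33, 6.13, 2.57 and 3.24 CPM to 0.93, 0.75 and 0.17 CPM, 6.25-fold (log2 -2.64, SE 0.51, edgeR adjusted p = 0.00112). Bcl2l11 fell from between 27.2 and 32.7 CPM to 12.1, 12.4 and 15.8 CPM, 2.24-fold (log2 -1.16, SE 0.13, edgeR adjusted p = 4.44e-05). The BH3-only genes thus moved in both directions. Bid rose 1.87-fold (edgeR adjusted p = 5.37e-05), and so did Bcl2l13, which overlaps it on the opposite strand with more reads than Bid in every library, 2.09-fold (adjusted p = 3.46e-05). The part of its reads in the count of Bid was not tested. Bad, at a log2 fold change of 0.39 (SE 0.19), did not pass (adjusted p = 0.0916), though it did without EM-mGC-3 (0.48, adjusted p = 0.0240).

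Both effectors rose. Bax went from between 30.6 and 44.2 CPM to 160.0, 134 and 136 CPM, a fold of 3.63 (log2 1.86, SE 0.12, edgeR adjusted p = 1.40e-06), and Bak1 rose 1.49-fold (log2 0.57, SE 0.14, adjusted p = 0.00401). Of the prosurvival genes, Mcl1 rose 1.98-fold (adjusted p = 0.000526) and Bcl2l1 1.97-fold (adjusted p = 0.000184). Bcl2 did not pass, with 6.15 ± 0.35 CPM in EM-mGC (SD, n = 5) and 8.14 ± 1.35 CPM in PBS (SD, n = 3; log2 0.39, SE 0.17, edgeR adjusted p = 0.0647, and log2 0.25 without PBS-2). Markers of most other cell types fell over the same contrast, where 37.9% of all genes were called lower. These were 6 of 6 tested for neutrophils, 7 of 7 for macrophages, 6 of 6 for lymphocytes, 3 of 3 common to leukocytes, 5 of 5 for red blood cells, 5 of 5 for endothelium, 7 of 8 for theca and stroma, 6 of 6 for oocytes and 5 of 5 for surface epithelium. Of 5 smooth muscle markers 2 fell and 2 rose, among them Acta2, 4.66-fold (edgeR adjusted p = 0.000128). The neutrophil sum was at most 0.164 CPM in the cultured libraries, with S100a8 and S100a9 at 0 reads in all of them, and the macrophage sum was 15.2 to 28.8 CPM. The part of these cell types in the differences of the BCL2 family genes was not tested.

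As shares of the summed level per kb of the 10 genes, the prosurvival genes took 50.2% to 53.4% in Con-mGC, 50.6% to 55.2% in EM-mGC, 43.1% to 48.2% in PBS and 46.8% to 48.1% in EET. The effectors took 32.9% to 37.1%, 31.0% to 36.0%, 39.7% to 43.3% and 39.5% to 40.9% in the same order. The cultured libraries thus had a smaller prosurvival and a larger effector share than every fresh library, although both sums were higher in culture (prosurvival 46.0 to 79.4 CPM per kb in the fresh and 126.5 to 139.1 CPM per kb in the cultured libraries), while the BH3-only share was 13.2%, 13.1%, 13.0% and 12.2% on average. Within it, Bbc3 made up 7.87% to 18.3% in the fresh libraries and 55.8% ± 3.99 in PBS and 55.5% ± 0.15 in EET (SD, n = 3), and Bcl2l11 16.7% to 28.0% in the fresh and 3.78% to 5.68% in the cultured libraries. The ratio of Bax to Bcl2 per kb was 20.7 to 40.4 in Con-mGC, 28.7 to 44.1 in EM-mGC, 80.8 to 121 in PBS and 110.4 to 145 in EET. The size of this ratio and of the shares depends on the exon lengths. These were the union of all annotated exons of a gene, 9.157 kb for Bcl2 and 1.576 kb for Bax. These shares are made of the values tested above and carry no test of their own.

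**Figure D4:**
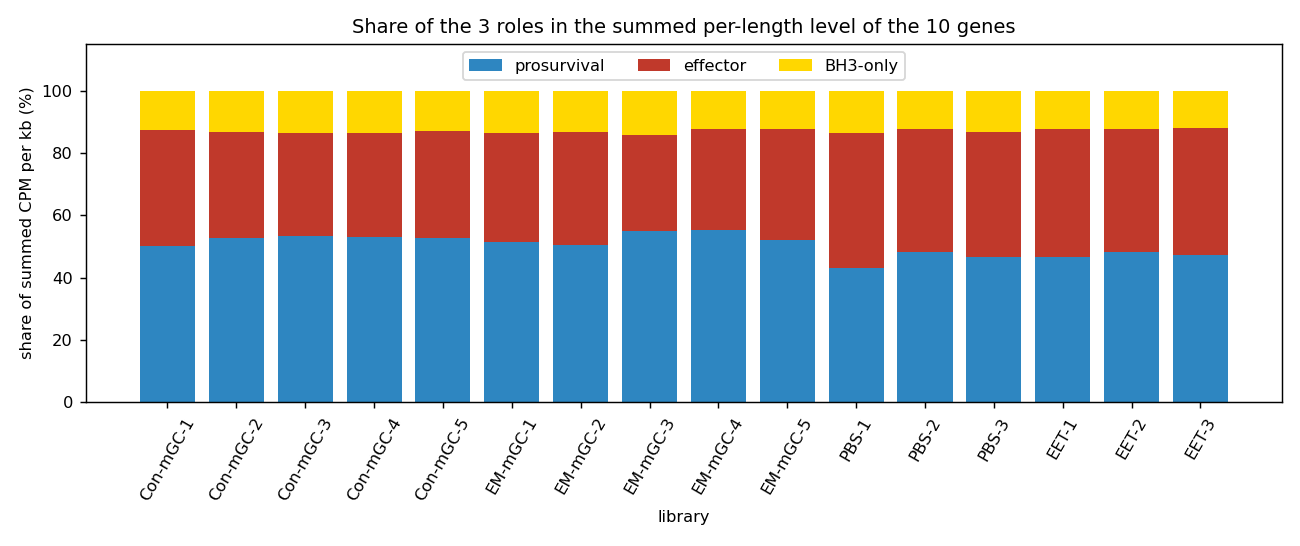
Share (%) of prosurvival, effector and BH3-only genes in the summed CPM per kb of the 10 genes, one bar per library. The prosurvival share is 50.2% or more in every fresh library and 48.2% or less in every cultured one.

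Promoter sequences are shown for Bbc3 and Bcl2l11, which moved in opposite directions, and for Bax. Pmaip1 was left out of the promoter search, so the counts below do not cover it. RefSeq promoters (GRCm38.p6, 250 bases before to 50 after each start) were taken for 9 of the 10 genes, with 15 starts in all. They were searched on both strands for 6 motifs, and those of FOXO and p53, factors on the list of regulators, are in capitals. The FOXO core TGTTTAC was in 2 of 15 (3.65% of all promoters) and the p53 half-site in 1 (8.36%). AP-1 (TGANTCA) was in none of them (0 of 15, against 7.81% of all 32851 promoters). Of the rest, the GC box GGGCGG was in 10 of 15 (35.7%), the CCAAT box CCAAT in 4 (37.4%) and the E-box CACGTG in 2 (7.15%). The starts shown were chosen after the matches were seen. A match is a string of letters and not a shown binding site.
Bbc3, second start, chr7:16310011-16310310, plus strand, FOXO core at -167 in capitals: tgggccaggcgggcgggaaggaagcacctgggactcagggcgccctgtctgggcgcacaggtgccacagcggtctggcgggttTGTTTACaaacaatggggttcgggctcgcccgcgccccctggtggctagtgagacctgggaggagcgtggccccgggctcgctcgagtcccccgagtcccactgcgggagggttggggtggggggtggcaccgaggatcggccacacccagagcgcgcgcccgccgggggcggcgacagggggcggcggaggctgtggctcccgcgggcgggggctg
Bcl2l11, first start, chr2:128125788-128126087, plus strand, FOXO core (reverse strand) at -227 in capitals: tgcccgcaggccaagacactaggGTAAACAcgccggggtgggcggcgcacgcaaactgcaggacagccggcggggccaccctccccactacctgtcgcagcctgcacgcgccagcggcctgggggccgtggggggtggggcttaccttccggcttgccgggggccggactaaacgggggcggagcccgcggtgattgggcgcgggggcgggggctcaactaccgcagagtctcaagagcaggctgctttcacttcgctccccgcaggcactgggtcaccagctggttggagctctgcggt
Bax, chr7:45466849-45467148, minus strand, p53 half-site at -201 in capitals: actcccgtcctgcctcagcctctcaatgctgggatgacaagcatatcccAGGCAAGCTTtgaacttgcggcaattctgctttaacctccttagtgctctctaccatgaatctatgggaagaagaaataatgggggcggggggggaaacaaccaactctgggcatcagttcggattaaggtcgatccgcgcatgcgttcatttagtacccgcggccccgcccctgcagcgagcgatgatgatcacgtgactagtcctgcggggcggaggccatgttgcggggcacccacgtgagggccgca
Bbc3 and Bcl2l11, with a FOXO core each, were called in opposite directions between fresh and cultured cells. Foxo1 fell by 1.43 on the log2 scale (edgeR adjusted p = 0.000838) while Foxo3 rose by 1.37 (adjusted p = 5.58e-06) and Foxo4 by 0.48 (adjusted p = 0.00488). Trp53 rose by 0.43 (edgeR adjusted p = 0.00262), and its inhibitors Mdm2 and Mdm4 went up by 1.03 and down to a log2 fold change of -1.88. The part of these factors in the levels of the 10 genes was not tested.

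The remaining genes of the family and the pathway were described by lists. In EM vs Con none was called in any list (0), the gene with the smallest p being Bcl2a1a among the other prosurvival genes (log2 fold change 1.71, edgeR adjusted p = 0.449). The smallest p in the other lists belonged to Bok (0.14), Bmf (0.64), Bnip3 (0.22), Cycs (0.37), Ripk1 (0.25) and Pim1 (0.71, all log2 fold changes). In EET vs PBS, besides Bmf, it belonged to Bcl2l2 (-0.06), Bok (-0.07), Bnip3 (0.22), Aifm1 (0.09), Cflar (0.10) and E2f1 (-0.20), of which none passed. From EM-mGC to PBS, 1 of 5 other prosurvival genes rose, Bcl2l2 (BCL-W, log2 0.67, adjusted p = 0.00150), and 4 fell. Bcl2l10 dropped from 9.75, 81.9, 139.8, 25.5 and 44.7 CPM to 0.11, 0.31 and 0.33 CPM, while the sum of 7 oocyte markers was between 87.2 and 692 CPM in EM-mGC and between 1.15 and 1.36 CPM in PBS. Bcl2a1a, Bcl2a1b and Bcl2a1d, paralogs expressed in blood cells whose shared sequence makes their reads uncertain, had no read in PBS, and were at least 38.1-, 21.1- and 81.1-fold lower against a floor of 3 reads over the group. The effector-like Bok rose by 0.88 on the log2 scale (adjusted p = 0.000358), and of the BH3-only genes Bik fell by 1.81 (edgeR adjusted p = 0.000914) while Bmf did not pass (-0.86, adjusted p = 0.0665). Of 5 tested BH3-related or atypical genes 2 rose, Bcl2l13 by 1.06 and the autophagy gene Becn1 by 0.35 on the log2 scale (adjusted p = 0.00281).

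Downstream of the pore, 6 of 17 genes rose and 7 fell between EM-mGC and PBS. Aifm1, a mitochondrial flavoprotein released on permeabilization, rose by 1.34 on the log2 scale, and Apaf1, the scaffold of the apoptosome, rose by 0.82. Vdac2, a channel that binds BAK, rose by 0.80. The caspase inhibitors Birc2 and Xiap fell by 1.26 and 0.92, and Diablo, which neutralizes such inhibitors, fell by 1.08. Of 9 tested death receptor genes 3 rose and 3 fell, with the TRAIL receptor Tnfrsf10b (log2 1.83), Tnfrsf1a (1.12) and the kinase gene Ripk1 (0.59) upward and Fas (-1.92), Tnfrsf1b (-2.42) and the caspase-8 inhibitor Cflar (-0.72) downward. Among 21 regulators 10 rose and 5 fell. Usp9x, the deubiquitinase of MCL1, rose by 1.13, Atf4 by 1.16 and Rela by 0.97, and Trp73 had no read in PBS (at least 16.6-fold lower). All genes named here passed an adjusted p of 0.05 in edgeR. With 69% of all genes called (31.1% higher, 37.9% lower), these counts do not set the lists apart.

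**Figure D5:**
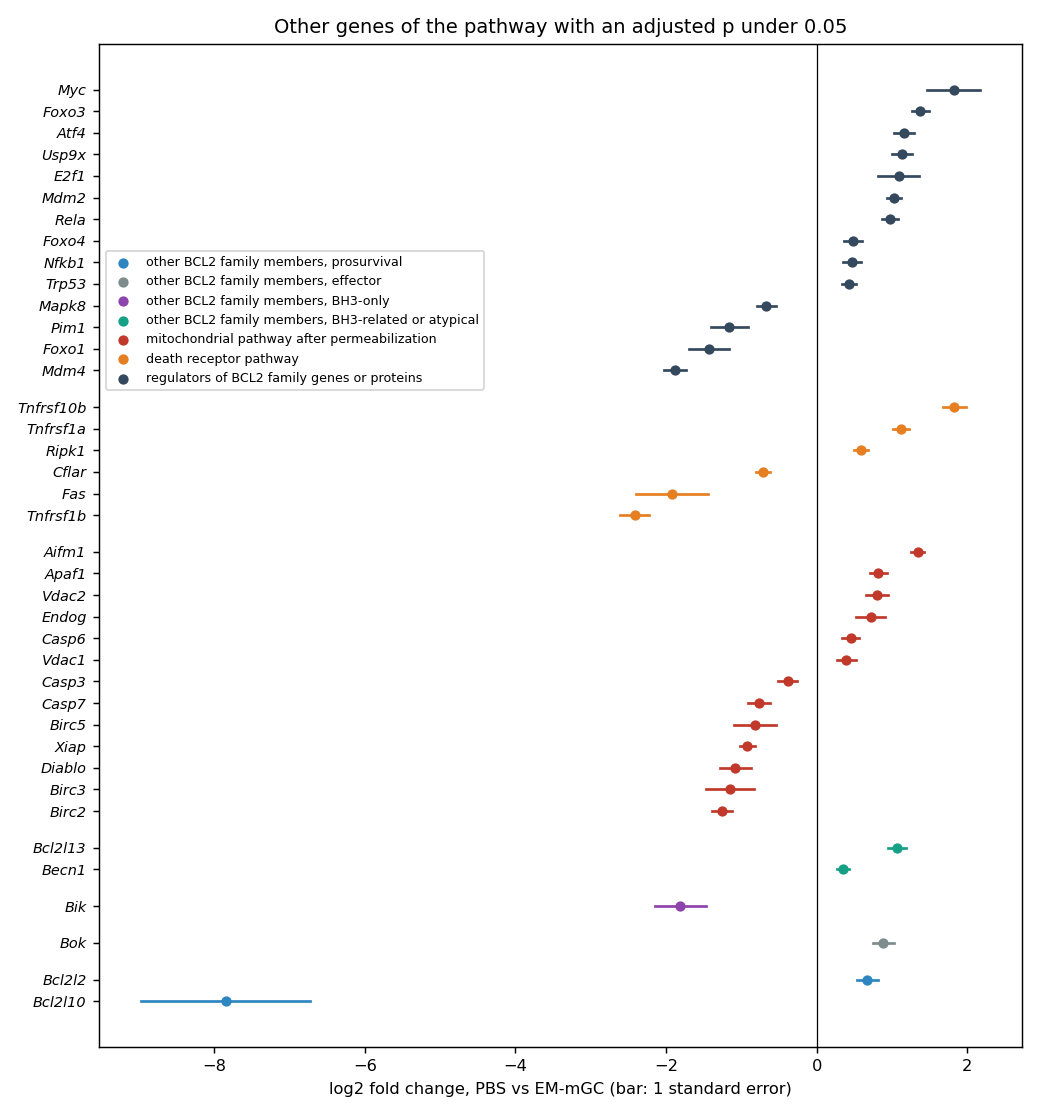
Log2 fold change from EM-mGC to PBS (bar: 1 standard error) of genes outside the 10 that passed an adjusted p of 0.05, by list; 4 genes without a read in PBS are left out. Genes lie on both sides of 0 in the lists of the mitochondrial pathway (6 higher, 7 lower), death receptors (3 and 3) and regulators (10 and 4 shown).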

How the data were processed

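RNA-seq of 16 mouse granulosa cell libraries in 2 experiments was used. The authors deposited 2 tables of raw counts per Ensembl gene from featureCounts, not normalized, and all columns were mapped (0 left out). The submitters' processing notes name fastp, HISAT2, StringTie and the build GRCm39, without roles; versions, the strand setting and the treatment of shared reads are not given in the sources used here. Gene coordinates are as deposited. Exon lengths came from GENCODE (GRCm38 annotation) and served only for levels per kb.

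Genes were kept by edgeR's filterByExpr by group (R 4.3.3, edgeR 4.0.16), scaled by TMM within each comparison, and tested by quasi-likelihood, with p-values adjusted by the Benjamini-Hochberg method over all genes kept and each comparison in a fit of its own. PBS vs EM joined the tables by gene identifier. Alternatives were DESeq2 1.42.0, limma 3.58.1 voom, other scalings and filters, a replicate block and leaving out each library. The fit was tested on simulated counts. No pair of libraries within a group agreed within sampling noise. The precision of low genes is limited by depth, so reads are given for Pmaip1.

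The 10 genes, the gene lists and the marker lists were chosen with earlier results of these data known. All 10 genes are named. From the gene lists, genes with an adjusted p under 0.05 are named, up to 6 per list and comparison by smallest p. Otherwise the gene with the highest level and that with the smallest p were taken, and the former are not printed. The marker lists did not follow this rule. Foxo1, Foxo4, Trp53, Trp73, the genes most like Bcl2l11 and Mcl1 and the promoters shown were picked after their values were seen. So were the granulosa, neutrophil, macrophage, theca, stroma, smooth muscle and endothelial markers named with a change.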

Additional observations from a re-analysis of the deposited data

Results flagged for a closer look

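Among 28 sets of 5 fresh libraries checked for a sample far from the rest, 4 held one, and chance flags about 1 group in 20. Bcl2l1 was at 79.6 CPM in Con-mGC-1, far above the other 4 control libraries. The same library had the lowest prosurvival share of the controls (50.2%). Pmaip1 was at 4.51 CPM in Con-mGC-3 and at 6.13 CPM in EM-mGC-3, each far above the rest of its group.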

How the results depend on the processing

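In EM vs Con, where no gene was called (0), DESeq2 called 114 genes, limma voom 224, the fit without a filter 4 and the replicate block 2, while 1626 had an unadjusted p under 0.05. Members called were 1 with DESeq2, 2 with voom (Bcl2l11 and Bax, adjusted p = 0.0389) and 4 unadjusted. Leaving out each library gave 0 to 46 genes (46 without Con-mGC-3, 1 without EM-mGC-1) and 0 members. In EET vs PBS, the 184 called genes became 330 with DESeq2, 623 with voom, 662 without a filter, 341 with the block and 1868 unadjusted, and 48 to 436 when a library was left out (48 without EET-3, 61 without EET-2, 122 without EET-1, 436 without PBS-2, 350 without PBS-1). Members called in PBS vs EM were 7 to 9 (7 with at least 10 counts in every library, where Pmaip1 was not tested), and genes called 8560 to 14355.

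Log2 fold changes that turned sign were all small or, for Pmaip1, imprecise. In EET vs PBS voom gave 0.010 for Bcl2l1, 0.014 for Bax, -0.046 for Bcl2l11 and 0.65 for Pmaip1, and the replicate block 0.0013 for Bad. Leaving out a library gave ranges across 0 in EM vs Con for Bcl2 (-0.21 to 0.011) and Bcl2l1 (-0.041 to 0.14), and in EET vs PBS for Bcl2l1 (-0.086 to 0.061), Bax (-0.063 to 0.063), Bak1 (-0.022 to 0.027), Bad (-0.038 to 0.060), Bcl2l11 (-0.037 to 0.21), Bbc3 (-0.15 to 0.040) and Pmaip1 (-0.75 to 0.13). The cause was not tested. Over the refits with another tool, scaling, filter, block or one library left out, the 10 genes kept direction and side of the threshold in 175 of 180 cases for EM vs Con, 135 of 153 for EET vs PBS (with Bmf, whose alternatives were added after seeing the data) and 157 of 159 for PBS vs EM.

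Same-numbered cultured libraries deviated from their group means with correlations of 0.119, 0.263 and -0.105. PBS-1 and PBS-2 correlated best with the EET library of their own number, but PBS-3 did so with EET-1 (0.238). Deviations from a mean of 3 libraries depend on each other, so these values cannot settle the pairing. The numbers were not taken as pairs, and the block called no member in either experiment.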

Other observations

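Over the 10 fresh libraries, the genes whose log2 CPM was most like that of Bcl2l11 were S100a8 (Pearson r = 0.967), Fcgr4 (0.966), Mmp9 (0.964), Siah1a (0.961) and N4bp1 (0.942). S100a8 and Mmp9 are on the list of neutrophil markers, and Fcgr4 is a receptor for antibodies on myeloid cells. For Mcl1 the closest were Junb (0.990), Pcyt1a (0.983), Zfp36 (0.981), Csf2rb (0.981) and Dusp6 (0.980). Junb and Zfp36 are immediate early genes, and Csf2rb encodes a receptor subunit for cytokines of myeloid cells. The closest genes were computed for all 10 members. Those of Bcl2l11 and Mcl1 were picked beside those of Pmaip1, the gene of the rule, after the values were seen. For the rest, the closest were Fzd7 for Bcl2 (0.974), Atg5 for Bcl2l1 (0.973), Treml2 for Bax (0.960) and Rpl23a-ps3 for Bak1 (0.990). They were Vdac1 for Bad (0.955), Dnajc8 for Bid (0.937) and Sgms1 for Bbc3 (0.953). All are descriptions over libraries that share their groups.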
